A study of Homo sapiens with 4 samples.

Results

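NF-kB is a family of transcription factors built from the subunits encoded by NFKB1, NFKB2, REL, RELA and RELB, which bind DNA as dimers. In resting cells IkB proteins, of which the product of NFKBIA is the best known, hold the dimers in the cytoplasm until the IKK kinases mark IkB for degradation. The freed dimers then switch on inflammatory genes such as TNF, IL1B and CXCL8, together with NFKBIA and TNFAIP3, whose products shut the pathway down again. In monocytic cells this pathway is the main route from microbial and cytokine signals to inflammatory gene expression. The 10 genes named here were taken by symbol from the deposited expression table of MV4-11 cells after ANP32B knockdown, and 9 of the 10 had a row among its 18885 genes. TNF had no row under its symbol and was not analysed here.

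MV4-11 is a human acute myeloid leukaemia (AML) cell line of monocytic character that carries an MLL fusion and an internal tandem duplication of FLT3. RNA-seq was performed on 2 control libraries (NC) and on 2 libraries of cells with shRNA knockdown of ANP32B (sh-ANP32B), a nuclear histone chaperone. For the controls the shRNA label reads none, while the methods describe stable lines selected with puromycin and an sh-NC control, so it is not clear from these sources whether the NC cells carried a hairpin. The methods name 3 hairpins against ANP32B, and which of them these libraries carry, and the time of harvest, are not stated. The knockdown columns of the table bear the mark S3, which the sample labels do not use, and were taken as the sh-ANP32B samples because no other samples were left for them. It is not stated either that the replicates came from separate cultures, so each p-value measures the spread between these libraries only. ANP32B itself had 358 and 364 TPM (a level per gene length, scaled to the library total) in the NC libraries and 54.1 and 49.3 TPM after knockdown, which is 14.3% of the mean of the controls. The libraries summed to between 997271 and 998546 TPM. TPM keep no number of reads, so the depth behind each value is unknown. The line was checked against marker genes of AML blasts. All 6 had a row. CD33, FLT3 and HOXA9 were not called between the groups, with FLT3 between 5.52 and 6.30 TPM. PTPRC (62.3 and 64.1 TPM in the NC libraries, 142 and 141 TPM after knockdown) and CD4 (381 and 383 TPM, then 619 and 618 TPM) were called higher, and MEIS1 (44.2 and 47.9 TPM, then 30.2 and 29.6 TPM) was called lower. Of the markers of T or NK, erythroid, and stromal or epithelial cells, CD3D, CD3E, HBB, COL1A1 and EPCAM had no row in the table.

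The 16937 genes that reached 1 TPM in 2 or more libraries were tested with limma on log2(TPM + 1), with Benjamini-Hochberg adjustment over this whole set. A gene was called where the log2 fold change of sh-ANP32B against NC exceeded 0.5 in size at an adjusted p below 0.05. All log2 fold changes below are on this scale, which understates the change of weakly expressed genes. By these limits 17.9% of all genes tested were called higher and 10.1% lower, 28.0% in all. Among the 9 genes of the NF-kB group, CXCL8, IL1B, REL and NFKB2 were called higher, 0 were called lower and 5 were not called. At an unadjusted p below 0.05 limma gave the same counts of 4 and 0, beside 20.2% and 10.8% of all genes. With a fold limit of 1, CXCL8 and IL1B were called higher and 0 lower, beside 6.71% and 1.61%. The median log2 fold change of the 9 genes was 0.43, compared with 0.08 over all genes tested. Scaling bears on this balance: 63.9% of all calls were higher with the TPM as deposited, 51.0% under median-of-ratios scaling and 50% after quantile normalization, the median of all genes being -0.01 and -0.04 and that of the NF-kB genes 0.34 and 0.26. IL1B passed the filter on low values only through the sh-ANP32B libraries, so it could enter the test only by being higher there, and the count of 4 is a description. The libraries hold bulk RNA, in which a change in the share of expressing cells and a change in RNA per cell cannot be told apart.

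**Figure D1:**
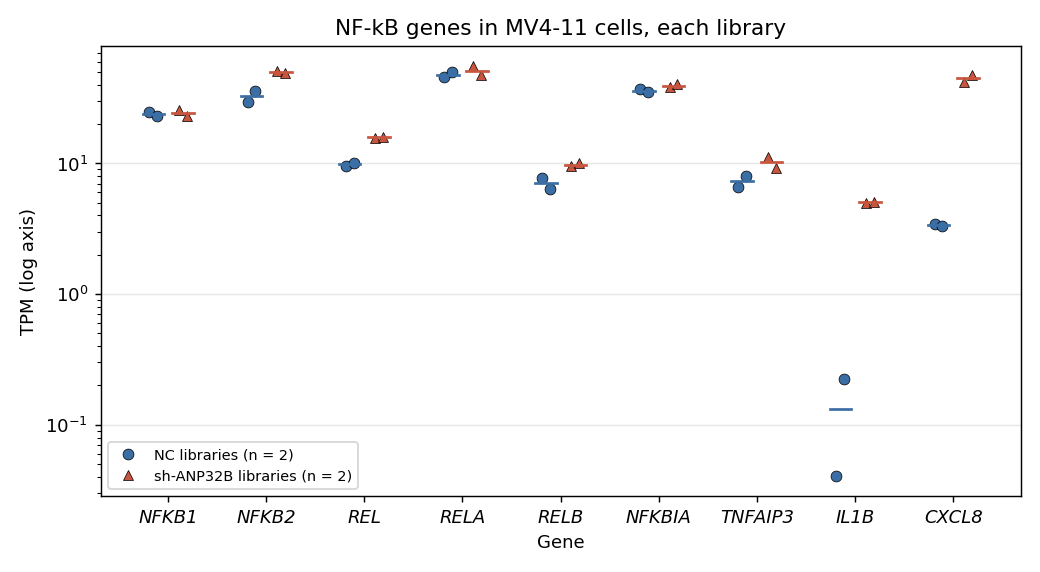
Level of each NF-kB gene in TPM (log axis) in the 2 NC libraries (blue circles) and the 2 sh-ANP32B libraries (red triangles), with a bar at each mean. CXCL8 moved from a mean of 3.39 TPM, above IL1B alone, to 44.8 TPM, close to RELA, while NFKB1, RELA and NFKBIA lay at nearly the same height in both groups.

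The inflammatory targets showed the largest differences of the group. CXCL8 encodes interleukin-8, the chemokine that attracts neutrophils (ENSG00000169429, chromosome 4 of hg38, from 73740519 to 73743716, plus strand). It had 3.45 and 3.33 TPM in the NC libraries and 42.2 and 47.4 TPM after knockdown. Both knockdown libraries thus stood far above both controls, the means being 44.8 ± 3.71 TPM after knockdown and 3.39 ± 0.0818 TPM in the controls (SD, n = 2 each), which is a 13.2-fold difference. The log2 fold change of CXCL8 was 3.38 (with a standard error of 0.10, limma, adjusted p = 6.52e-05), and 0.0945% of the genes tested had a higher one. CXCL8 rose from above 27.1% of the genes tested in the NC group to above 76.3% of them in the sh-ANP32B group.

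IL1B encodes the precursor of interleukin-1 beta, a pyrogenic cytokine that needs cleavage by caspase-1 (ENSG00000125538, chromosome 2, from 112829751 to 112836816, minus strand). It was barely detected in the controls, with 0.0408 and 0.226 TPM, and had 5.02 and 5.06 TPM after knockdown. Because IL1B passed the filter on low values only through the sh-ANP32B libraries, its groups could not overlap, and this is no support for the difference. The sh-ANP32B libraries differed from each other by less than the NC libraries did. The log2 fold change of IL1B was 2.42 (with a standard error of 0.21, limma, adjusted p = 5.70e-04). Its size rests on the pseudocount because the controls were close to 0, and with a pseudocount of 0.1 it was 4.59. IL1B thus went from near absence to a mean of 5.04 TPM, between the control means of CXCL8 (3.39 TPM) and RELB (7.07 TPM), whereas CXCL8 reached the level of the best expressed subunits. Monocyte and macrophage markers were higher in the same libraries: 8 of 12 had a row, with a summed level of 525 to 531 TPM in the NC libraries and 5567 to 5619 TPM in the sh-ANP32B libraries, and 7 of the 8 were called higher, beside 17.9% of all genes tested. S100A8, S100A9 and FCN1, 3 of these 7, were below 1 TPM in both NC libraries and passed the filter only through the sh-ANP32B libraries, so that they could only be called higher. LYZ made up most of that sum, and CD14, CD163 and MRC1 had no row. Of 9 neutrophil markers, 5 had a row. Their summed level was 2522 to 2555 TPM in the NC libraries and 3923 to 4025 TPM after knockdown. ELANE, CAMP and CXCR2 were called higher, beside 17.9% of all genes tested, and AZU1 and PRTN3 were not called. ELANE held much of the gain in that sum, with 666 and 652 TPM in the NC libraries and 1636 and 1656 TPM after knockdown. The part of these markers in the results for the NF-kB genes was not tested.

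The sequences before the start of these genes are shown because the members were grouped by their link to a single family of DNA-binding factors. A window of 250 bases before each RefSeq gene start (GRCh38.p14) was read for 8 of the 9 genes, and RELB had none. The windows below belong to the inflammatory targets CXCL8 and IL1B, to REL and to NFKB2, which were called higher, and to the feedback genes NFKBIA and TNFAIP3, which were not. They are written 5′ to 3′ on the strand of the gene and end at the base before its RefSeq start, which can differ from the GENCODE ends given here for the genes. Capitals mark matches, on either strand, to the kappa-B consensus of 10 letters with any base in its first position, and overlapping matches are merged.
CXCL8, chr4:73740319-73740568, plus strand: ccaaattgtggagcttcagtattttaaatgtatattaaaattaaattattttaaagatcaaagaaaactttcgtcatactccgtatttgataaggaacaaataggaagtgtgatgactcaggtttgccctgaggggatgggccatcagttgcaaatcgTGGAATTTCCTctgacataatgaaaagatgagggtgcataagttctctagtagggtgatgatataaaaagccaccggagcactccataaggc
IL1B, chr2:112836780-112837029, minus strand: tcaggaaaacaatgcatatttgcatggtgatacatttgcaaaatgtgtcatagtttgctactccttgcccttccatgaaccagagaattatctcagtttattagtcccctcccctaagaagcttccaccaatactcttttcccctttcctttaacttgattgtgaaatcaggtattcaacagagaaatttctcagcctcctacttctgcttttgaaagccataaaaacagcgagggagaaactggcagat
REL, chr2:60881324-60881573, plus strand: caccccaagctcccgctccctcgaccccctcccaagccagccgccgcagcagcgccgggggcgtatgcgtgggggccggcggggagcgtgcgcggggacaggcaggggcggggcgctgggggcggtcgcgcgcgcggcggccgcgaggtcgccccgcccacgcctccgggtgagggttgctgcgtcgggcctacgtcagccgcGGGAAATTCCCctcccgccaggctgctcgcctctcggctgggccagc
NFKB2, chr10:102394328-102394577, plus strand: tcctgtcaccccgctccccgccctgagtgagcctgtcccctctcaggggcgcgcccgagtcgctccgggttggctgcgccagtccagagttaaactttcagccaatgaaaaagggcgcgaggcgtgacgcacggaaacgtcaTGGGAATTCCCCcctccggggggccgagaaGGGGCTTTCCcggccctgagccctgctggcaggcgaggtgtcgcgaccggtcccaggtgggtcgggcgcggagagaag
NFKBIA, chr14:35404750-35404999, minus strand: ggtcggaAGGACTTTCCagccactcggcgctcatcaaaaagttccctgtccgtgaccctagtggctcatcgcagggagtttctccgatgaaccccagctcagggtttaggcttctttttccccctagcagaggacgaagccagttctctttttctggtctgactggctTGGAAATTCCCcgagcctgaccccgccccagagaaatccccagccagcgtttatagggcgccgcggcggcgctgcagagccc
TNFAIP3, chr6:137867009-137867258, plus strand: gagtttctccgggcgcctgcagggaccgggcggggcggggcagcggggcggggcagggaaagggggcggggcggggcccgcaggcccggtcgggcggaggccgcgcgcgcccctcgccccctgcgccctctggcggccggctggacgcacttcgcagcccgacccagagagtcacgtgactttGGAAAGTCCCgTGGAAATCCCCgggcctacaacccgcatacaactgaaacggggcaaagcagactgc

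The full kappa-B consensus was found in 9.96% of the 35116 RefSeq windows of this length, and the form with a free first base in 28.3%. REL held the full consensus as GGGAAATTCC from 47 to 38 bases before its start, and TNFAIP3 held it at 2 places, from 67 to 58 and from 55 to 46 bases before its start. NFKBIA held it from 81 to 72 bases before its start and a further match with a free first base, AGGACTTTCC, 243 bases before it. The CXCL8 window held TGGAATTTCC from 92 to 83 bases before its start, which matches only with the first base free. It also held TGACTCA, a match to the AP-1 motif TGANTCA, which 6.57% of all windows contain, and TATAAA, which 10.7% contain. No match of either kappa-B form lay in the IL1B window. NFKB2 has 3 RefSeq starts, of which the most upstream had no match in its window and the other two held the full consensus. Among the members that were not called, NFKBIA, TNFAIP3 and NFKB1 held the full consensus in a window. Windows of all genes called higher held it in 12.7% of cases, those of genes called lower in 13.2% and those of genes not called in 11.5%.

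The mRNAs of CXCL8 and IL1B are textbook examples of short-lived messages with AU-rich elements in the 3′ untranslated region. In the canonical GENCODE transcripts, the nonamer TTATTTATT occurred 2 times in the 3′ untranslated region of IL1B and 1 time each in those of CXCL8, REL and TNFAIP3. It occurred in none of the other 5 members. Of the 11300 genes tested with such a region, 9.11% held at least 1 nonamer and 2.28% at least 2. The pentamer ATTTA reached 9.84 per kilobase in IL1B and 7.19 per kilobase in CXCL8, compared with a median of 1.62 over these genes. It was also above that median in NFKB2 (6.76), NFKBIA (6), NFKB1 (4.24), REL (2.75) and TNFAIP3 (2.51), and was not found in RELA and RELB. The value of NFKB2 rests on 1 pentamer in a region of 148 bases. Genes called higher held the nonamer in 8.23% of cases, genes called lower in 8.17% and genes not called in 9.48%.

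Among the subunits, NFKB2 and REL were called higher, and NFKB1 and RELA were not called. NFKB2 encodes p100, which is processed to the p52 subunit of the non-canonical pathway (ENSG00000077150, chromosome 10, from 102394110 to 102402524, plus strand). It had 29.6 and 35.8 TPM in the NC libraries and 51.0 and 49.4 TPM after knockdown. Both knockdown values exceeded both control values, and the controls differed more from each other than the knockdown libraries did. The log2 fold change of NFKB2 was 0.61 (with a standard error of 0.098, limma, adjusted p = 0.00497), a 1.54-fold difference of the means. Without NC replicate 1 it was 0.48 (limma, adjusted p = 0.00949), inside the fold limit, so this call rested on that library.

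REL encodes c-Rel, a subunit with a strong activation domain that is largely restricted to blood cells (ENSG00000162924, chromosome 2, from 60881491 to 60931612, plus strand). It had 9.60 and 10.1 TPM in the NC libraries and 15.8 and 15.8 TPM after knockdown, so the replicates lay close together and the groups apart. Its log2 fold change was 0.63 (with a standard error of 0.095, limma, adjusted p = 0.00392), and it stayed between 0.52 and 0.68 over all settings in which it was refitted. REL shares 5702 of its 17129 annotated exonic bases with ENSG00000267520 on the same strand. That gene was listed at 0.222 and 0.960 TPM in the NC libraries and at 2.64 and 2.48 TPM in the sh-ANP32B libraries, so reads in the shared part could have been split between them.

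RELA encodes p65, the main activating subunit of the canonical pathway (ENSG00000173039, chromosome 11, from 65653599 to 65663090, minus strand). It had 45.5 and 50.02 TPM in the NC libraries and 55.3 and 47.4 TPM after knockdown, and the groups overlapped. The log2 fold change of RELA was 0.10 (95% interval from -0.13 to 0.33, limma, adjusted p = 0.423). NFKB1 encodes p105 and its processed form p50, the usual partner of p65 (ENSG00000109320, chromosome 4, from 102501330 to 102617302, plus strand). It had 24.9 and 23.2 TPM in the NC libraries and 25.6 and 23.1 TPM after knockdown. The groups of NFKB1 overlapped as well, with a log2 fold change of 0.01 (95% interval from -0.20 to 0.23, limma, adjusted p = 0.91). RELA shares 103 exonic bases with RELA-DT on the opposite strand. The intervals lie within the fold limit of 0.5 for both genes. RELB encodes the partner of p52 (ENSG00000104856, chromosome 19, from 45001461 to 45038192, plus strand). It had 7.73 and 6.42 TPM in the NC libraries and 9.59 and 10.03 TPM after knockdown. The groups of RELB did not overlap, which held for 74.7% of all genes tested, and its log2 fold change was 0.43 (95% interval from 0.09 to 0.76, limma, adjusted p = 0.0468). RELB was thus not called, and its adjusted p from limma was 0.17 after quantile normalization.

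**Figure D2:**
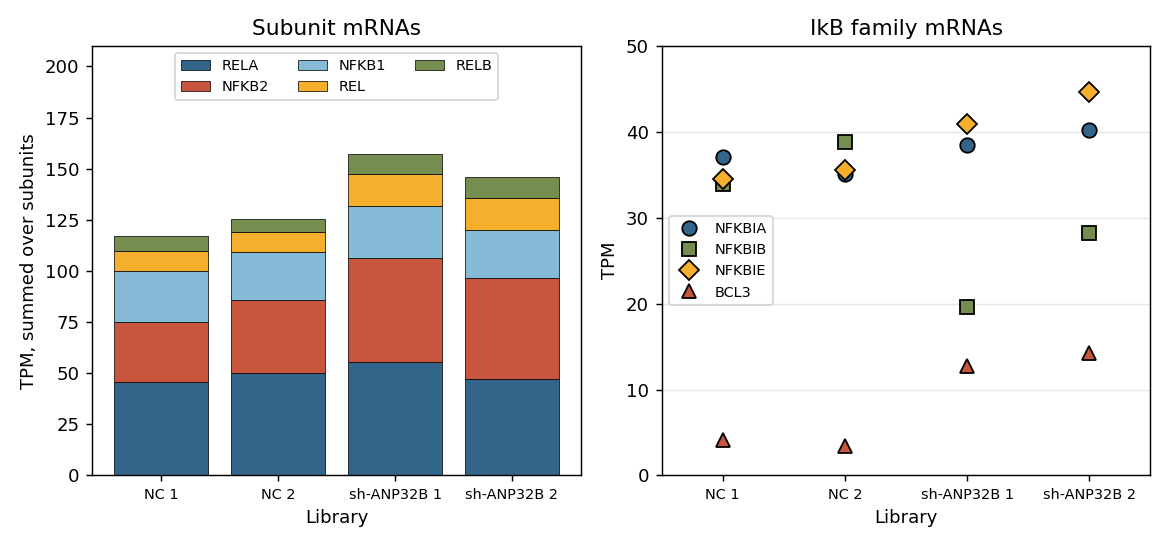
Left, TPM of the 5 subunits stacked for each library; right, TPM of NFKBIA, NFKBIB, NFKBIE and BCL3 in each library. The stack reached 117 and 126 TPM in the controls, and 157 and 146 TPM after knockdown, the gain lying largely in the NFKB2 band, while NFKBIB was lower and BCL3 higher after knockdown.

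TPM are levels per length, so the subunits can be set beside each other within a library. Together they held 117 and 126 TPM in the NC libraries and 157 and 146 TPM after knockdown. RELA was the largest part in the NC libraries, with 38.8% and 39.9% of the sum, and held 35.2% and 32.5% after knockdown. NFKB2 held 25.3% and 28.5% in the NC libraries and 32.4% and 33.9% after knockdown, and in the second sh-ANP32B library it exceeded RELA. The ratio of NFKB2 to NFKB1 was 1.19 and 1.54 in the NC libraries and 1.99 and 2.14 in the sh-ANP32B libraries, and that of REL to RELA was 0.211 and 0.201 against 0.286 and 0.334. A single scaling factor per library leaves these ratios as they are, whereas quantile normalization does not. Of all genes tested, 74.7% had levels that did not overlap between the groups, and neither ratio overlapped. With 2 libraries a group, an exact two-sided permutation test gave p = 0.333 for each ratio. This is the smallest p the test can give at that size, so it cannot pass a threshold of 0.05.

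NFKBIA and TNFAIP3, the inhibitors that NF-kB itself induces, were not called. NFKBIA encodes IkB alpha (ENSG00000100906, chromosome 14, from 35401079 to 35404749, minus strand). It had 37.1 and 35.1 TPM in the NC libraries and 38.5 and 40.2 TPM after knockdown. The knockdown values were higher without overlap, but by little, and the log2 fold change was 0.12 (95% interval from -0.04 to 0.28, limma, adjusted p = 0.173). TNFAIP3 encodes A20, the ubiquitin-editing enzyme that ends signalling from the TNF receptor (ENSG00000118503, chromosome 6, from 137867214 to 137883314, plus strand). It had 6.61 and 7.98 TPM in the NC libraries and 11.2 and 9.15 TPM after knockdown. The groups of TNFAIP3 did not overlap either, yet the replicates of each group were uneven, and the log2 fold change was 0.43 (95% interval from 0.04 to 0.81, limma, adjusted p = 0.0689). The interval of TNFAIP3 reaches past the fold limit, so a difference as large as that of NFKB2 (0.61) remains within it. TNFAIP3 shares 95 exonic bases with WAKMAR2 on the opposite strand, listed at 0.532 and 0.903 TPM in the NC libraries and at 3.38 and 1.13 TPM after knockdown. The intervals of NFKBIA and of CXCL8 (from 3.12 to 3.64) lie far apart.

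**Figure D3:**
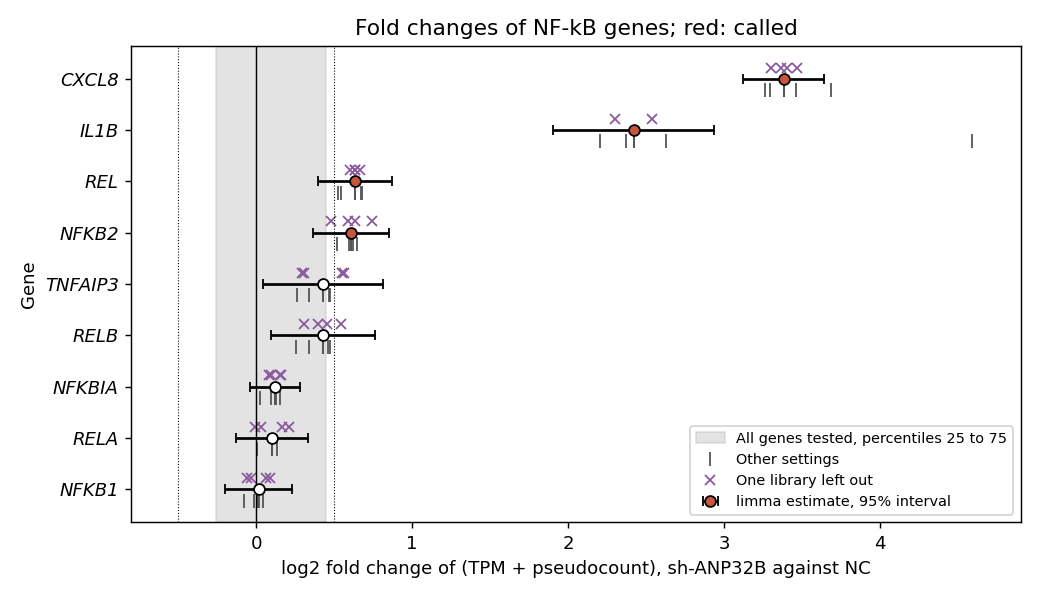
log2 fold change of each NF-kB gene, sh-ANP32B against NC, with its 95% interval from limma (circles, red where called), the estimates with 1 library left out (crosses) and under the other settings (ticks). Dotted lines mark the fold limit of 0.5 and the grey band the range of all genes tested from percentile 25 (-0.26) to percentile 75 (0.45); CXCL8 and IL1B stand clear of the band, and the lone tick to the right of IL1B is the pseudocount of 0.1.

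Ordered by level, the NC libraries held RELA highest with a mean of 47.8 TPM, then NFKBIA (36.1 TPM), NFKB2 (32.7 TPM), NFKB1 (24.1 TPM), REL (9.83 TPM), TNFAIP3 (7.30 TPM), RELB (7.07 TPM), CXCL8 (3.39 TPM) and IL1B (0.133 TPM). NFKBIA and NFKB2 overlapped between their replicates in this order, and so did TNFAIP3 and RELB. In the sh-ANP32B libraries the means ran from RELA (51.3 TPM), NFKB2 (50.2 TPM) and CXCL8 (44.8 TPM) over NFKBIA (39.4 TPM), NFKB1 (24.3 TPM), REL (15.8 TPM), TNFAIP3 (10.2 TPM) and RELB (9.81 TPM) to IL1B (5.04 TPM). RELA overlapped there with NFKB2 and with CXCL8, and TNFAIP3 overlapped with RELB. CXCL8 moved furthest in the order, from the eighth place to the third.

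The wider pathway was followed through 119 further genes in 8 lists, drawn up by role. Of these, 92 had a row and 91 were tested. Of the 91, 25 (27.5%) were called higher and 10 (11.0%) were called lower, beside 17.9% and 10.1% of all genes tested, and their median log2 fold change was 0.27 beside 0.08. With 1 TPM required in every library, 23 were called higher, beside 2467 of the 14550 genes then tested. That filter leaves out CCL2 and CXCL2, and also TRAF1, BIRC3 and NFKBIL1, which were not called. TRAF1 had passed the main filter only through the sh-ANP32B libraries. Under median-of-ratios scaling 20 were called higher and 13 lower, beside 2422 and 2328 of the 16869 genes then tested. After quantile normalization 21 were called higher and 12 lower, beside 2228 and 2226 of the 16890 genes then tested. The number called lower fell to 6 without NC replicate 2 and to 6 without sh-ANP32B replicate 1. The lists were described by these counts only.

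Of 6 other IkB proteins, BCL3 was called higher, NFKBIB was called lower and 4 were not called. Of all genes tested, 17.9% were called higher and 10.1% lower. BCL3, a nuclear IkB protein that acts as a co-activator with p52 or p50 dimers, had 4.16 and 3.43 TPM in the NC libraries and 12.8 and 14.2 TPM after knockdown (log2 fold change 1.60, standard error 0.14, limma, adjusted p = 6.52e-04). NFKBIB, which encodes the cytoplasmic inhibitor IkB beta, had 34.0 and 38.8 TPM in the NC libraries and 19.6 and 28.2 TPM after knockdown (log2 fold change -0.60, limma, adjusted p = 0.0361). The sh-ANP32B libraries of NFKBIB differed widely, and its call was lost without NC replicate 1, NC replicate 2 or sh-ANP32B replicate 1. It was also lost when limma was run without a trend, and the estimates over all refits ran from -0.86 to -0.35. Of those not called NFKBIE, which encodes IkB epsilon, had a log2 fold change of 0.28 (limma, adjusted p = 0.0218), inside the fold limit. Summed over NFKBIA, NFKBIB and NFKBIE, inhibitor TPM per subunit TPM were 0.900 and 0.873 in the NC libraries and 0.630 and 0.776 in the sh-ANP32B libraries (exact permutation test, two-sided, p = 0.333, the smallest possible).

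Beside 17.9% higher and 10.1% lower over all genes tested, 3 of 11 IKK and upstream kinases were called higher, 1 lower and 7 were not called. The core of the IKK complex lay among the latter: CHUK had a log2 fold change of 0.05, IKBKB one of 0.22 and IKBKG one of 0.08. IKBKE, an IKK-related kinase, had 18.2 and 17.8 TPM in the NC libraries and 30.0 and 28.2 TPM after knockdown (log2 fold change 0.67, limma, adjusted p = 0.00146). MAP3K14 encodes NIK, the kinase that starts the processing of p100, and had 6.31 and 7.39 TPM in the NC libraries and 11.3 and 10.4 TPM after knockdown (log2 fold change 0.59, limma, adjusted p = 0.0148). The call of MAP3K14 was lost after quantile normalization and without NC replicate 1 or sh-ANP32B replicate 1. MAP3K8, a kinase held by p105, had a log2 fold change of 0.59, and its call was lost in 6 of 12 refits, those with the replicate block, without NC replicate 1 and without sh-ANP32B replicate 1 among them. TAB2, an adaptor of the kinase TAK1, was lower, with 51.0 and 46.5 TPM in the NC libraries and 32.5 and 31.9 TPM after knockdown (log2 fold change -0.58, limma, adjusted p = 0.00166).

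Among 21 ubiquitin enzymes, TRAF and RIP proteins, 2 (9.52%) were called higher and 4 (19%) lower, beside 17.9% and 10.1% of all genes tested. CYLD, a deubiquitinase that restrains the pathway, had 13.6 and 12.3 TPM in the NC libraries and 24.8 and 28.3 TPM after knockdown (log2 fold change 0.98, limma, adjusted p = 0.00115). BIRC2, which encodes the ubiquitin ligase cIAP1, had a log2 fold change of 0.72 (limma, adjusted p = 0.0084). TRAF2 and TRAF3, which join cIAP1 in the complex that keeps NIK low, had log2 fold changes of -0.50 and -0.50, at the edge of the fold limit. Each of the calls of TRAF2 and TRAF3 was lost in 3 of 12 refits, 2 of them without NC replicate 2 and without sh-ANP32B replicate 1. TRAF5 (-0.63) and TNIP1 (-0.62), the latter a partner of A20, were lower as well. The calls of TNIP1, CYLD and BIRC2 held in all 12 refits, whereas that of TRAF5 was lost without NC replicate 1, NC replicate 2 or sh-ANP32B replicate 1.

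Of 15 adaptors and IRAK kinases, 4 were called higher and none lower, beside 17.9% and 10.1% of all genes tested. IRAK2, a kinase of the Toll-like and IL-1 receptor complex, had 6.33 and 6.75 TPM in the NC libraries and 13.2 and 12.8 TPM after knockdown (log2 fold change 0.89, limma, adjusted p = 0.00193). NOD2, a sensor of bacterial cell wall fragments, had a log2 fold change of 0.62, TOLLIP one of 0.59 and TRADD, the adaptor of the TNF receptor, one of 0.50. The calls of TOLLIP and TRADD were lost under median-of-ratios scaling, and those of TRADD and NOD2 after quantile normalization. That of TRADD was also lost without NC replicate 1 or sh-ANP32B replicate 2, and that of NOD2 when any of the 4 libraries was left out. Of 12 receptors of TNF, IL-1, CD40 ligand and CXCL8, 6 were tested and 2 were called higher, beside 17.9% of all genes tested. After quantile normalization 2 of these receptors were called higher and 1 lower, beside 2228 and 2226 of the 16890 genes then tested. CXCR2, a receptor for the CXCL8 protein, had 10.3 and 9.56 TPM in the NC libraries and 30.9 and 27.3 TPM after knockdown (log2 fold change 1.46, limma, adjusted p = 3.12e-04). TNFRSF1B, a receptor for TNF, had a log2 fold change of 0.57, and its call was lost under median-of-ratios scaling. CXCR1, IL1R1, IL1R2 and CD40 were not analysed here.

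Of the 7 genes tested for cytokine processing and antagonists, 4 were called higher and none lower, beside 17.9% and 10.1% of all genes tested. IL1RN encodes the natural antagonist of the IL-1 receptor and had 3.80 and 3.87 TPM in the NC libraries and 10.8 and 7.35 TPM after knockdown (log2 fold change 1.03, limma, adjusted p = 0.00911). IL18, a cytokine of the IL-1 family, had a log2 fold change of 0.63, ADAM17, the protease that releases TNF from the membrane, one of 0.58 and TNFSF10, which encodes TRAIL, one of 1.22. The call of ADAM17 was lost under median-of-ratios scaling. CASP1, the protease that matures the IL1B product, was not called, with 14.5 and 9.16 TPM in the NC libraries and 16.3 and 15.2 TPM after knockdown.

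**Figure D4:**
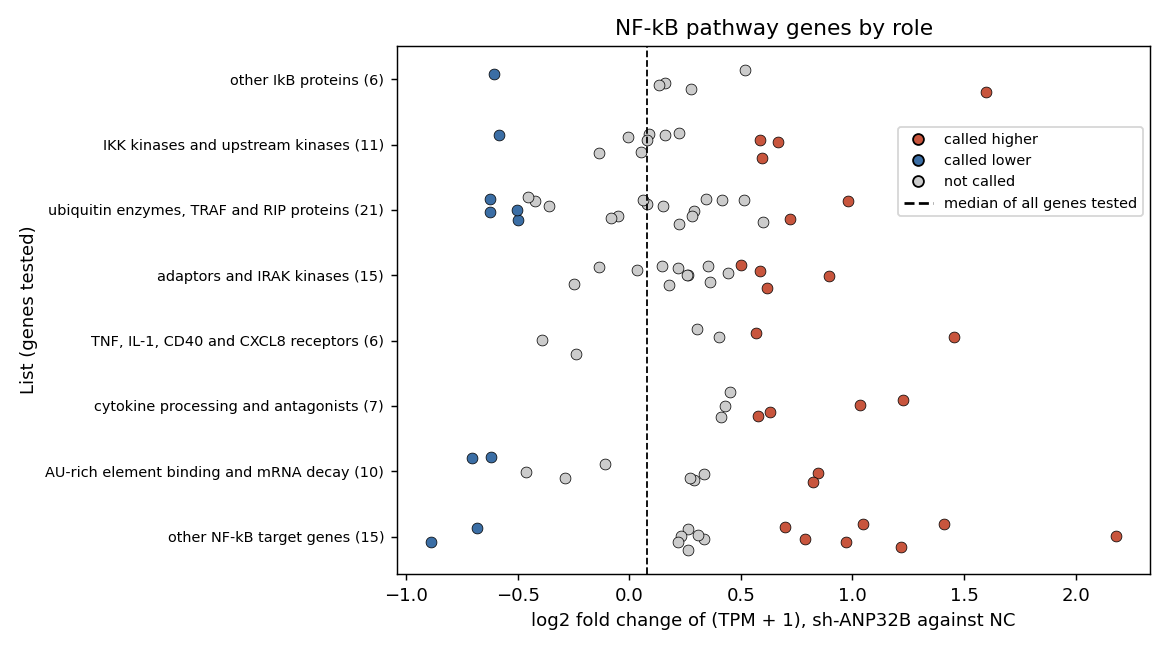
log2 fold change of each of the 91 further pathway genes tested, sh-ANP32B against NC, in 8 lists by role (genes tested in brackets); red points were called higher, blue lower and grey were not called, with a dashed line at the median of all genes tested (0.08). Called genes lie on both sides among other IkB proteins, kinases, ubiquitin enzymes, AU-rich element binders and other targets. Among adaptors, receptors and cytokine processing they lie on the right side alone. These are lists of 15, 6 and 7 genes tested, and 10.1% of all genes tested were called lower. After quantile normalization 1 receptor gene was called lower, as were 2226 of the 16890 genes then tested.

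Genes for proteins that bind AU-rich elements were called in both directions, 2 higher and 2 lower of 10. Of all genes tested, 17.9% were called higher and 10.1% lower. ZFP36, which encodes tristetraprolin and promotes decay of the TNF and IL1B messages, had 22.04 and 22.1 TPM in the NC libraries and 45.0 and 36.4 TPM after knockdown (log2 fold change 0.85, limma, adjusted p = 0.00228). ZFP36L1, its relative, had a log2 fold change of 0.82. KHSRP, which also promotes decay, was lower, with 464 and 485 TPM against 293 and 288 TPM (log2 fold change -0.71, limma, adjusted p = 1.96e-04). HNRNPD, which encodes AUF1, had a log2 fold change of -0.62. The other 6 of the 10 were not called. ELAVL1, whose product HuR stabilises such messages, had a log2 fold change of -0.46, inside the fold limit.

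Of 35 other target genes of NF-kB, 16 had a row, 15 were tested, 7 were called higher and 2 lower. Over all genes tested the shares called were 17.9% higher and 10.1% lower. CCL2, the chemokine that attracts monocytes, had 0.504 and 0.258 TPM in the NC libraries and 5.41 and 5.08 TPM after knockdown (log2 fold change 2.18, limma, adjusted p = 7.43e-04). Like IL1B, CCL2 passed the filter only through the sh-ANP32B libraries, and so did CXCL2 (0.778 and 0.649 TPM in the NC libraries, 2.27 and 2.44 TPM after knockdown), which is among the 7. TNFAIP2 had 47.8 and 60.2 TPM in the NC libraries and 141 and 147 TPM after knockdown (log2 fold change 1.41, limma, adjusted p = 4.23e-04). PLAU, which encodes urokinase, had a log2 fold change of 1.22 and BCL2A1, a survival gene of the BCL2 family, one of 0.70. On the other side, TNFAIP8 had 65.0 and 87.9 TPM in the NC libraries and 41.1 and 39.7 TPM after knockdown (log2 fold change -0.89, limma, adjusted p = 0.00454), and GADD45B had a log2 fold change of -0.68. The direction of all 7 genes named with values was the same in each refit that tested them. The call of CXCL2 was lost without NC replicate 2. IL6, CCL4, CXCL1, CXCL3 and SOD2 were not analysed here.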

How the data were processed

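Per the submitters' processing notes and the methods, HISAT2 (version 2.0.5) and hg38 served for alignment, of libraries made with an Illumina TruSeq RNA kit. The authors deposited 1 value per gene and library, which is TPM as judged from the values: no unit is named, and the libraries sum to nearly the same total. The tool, annotation and strand handling behind the TPM are not given in the sources used here. Each listed gene has a mean of at least 0.5 TPM. Symbols and positions come from GENCODE version 44 on hg38 and matched 17290 of the 18885 identifiers. DESeq2, used in the study, needs counts and could not be run on TPM. Instead limma (version 3.58.1, R 4.3.3, lmFit and eBayes with a trend) was run on log2(TPM + 1) without a block. Promoter windows come from RefSeq. Python 3.11.15 with numpy 2.4.6, pandas 2.3.3 and matplotlib 3.10.9 was used for tables and plots. The members, lists and tests were chosen with earlier results of these data known. Named were all members, ANP32B and, per list, the called genes with the 3 highest and 3 lowest log2 fold changes, and the IKK core genes, NFKBIE, CASP1, ELAVL1 and CXCL2 were named after their values were seen. The test was tried on simulated data. Alternatives were the replicate block, filters, pseudocount, scalings, trend, call rules and leaving out each library.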

Additional observations from a re-analysis of the deposited data

How the results depend on the processing

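At the fold limit of 0.5, CXCL8 and IL1B were called in every refit that tested them, and REL in all 12. IL1B was not tested with 1 TPM required in every library or without either sh-ANP32B library. Without NC replicate 1, NFKB2 was no longer called (0.48) and RELB was (0.54), and the number of members called higher ranged from 3 to 4 with libraries left out. Estimates near 0 changed sign: NFKB1 was -0.079 under median-of-ratios scaling, -0.012 after quantile normalization and from -0.057 to 0.086 with a library left out, and RELA was from -0.01 to 0.21 with a library left out. With a fold limit of 1, 2 members and 8 pathway genes were called higher, 0 pathway genes lower, and 1136 and 273 of all genes higher and lower. Pathway genes called lower numbered from 6 to 11 with a library left out, with 6 both without NC replicate 2 and without sh-ANP32B replicate 1. The replicate numbers are shared by label only: deviations of same-numbered libraries had a correlation of -0.0232. With the replicate block, 4 members and 24 pathway genes were called higher, 10 pathway genes lower, and 2853 and 1671 of all genes higher and lower. ANP32B stayed between -2.88 and -2.72 over all settings. Depth is unknown, so no counting error can be given for IL1B or other genes near 0 TPM in the controls.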
